A study of Mus musculus with 6 samples.

Results

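A set of 9 genes of the mouse X chromosome, Fndc3c1, Pak3, 4930595M18Rik, Ppp4r3c-ps, Cenpi, Tceal1, 4933400A11Rik, 4921511C20Rik and 1700013H16Rik, was followed in germ cells with and without the ubiquitin ligase Rnf8. They are 9 of 17925 genes tested, and were chosen by a low value on the Rnf8 knockout (KO) round spermatid array against the wild-type (WT) round spermatid array. That choice fixed the difference between these 2 arrays, which is therefore given as a description without a test. The rule of choice did not use the pachytene arrays, but earlier results of these arrays were known when the list was made. The pachytene values are therefore no independent check of the list.

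RNA was measured on Affymetrix MoGene 1.0 ST arrays, which give 1 value for each transcript cluster, a group of probes along a gene. The arrays were 1 of Rnf8-KO round spermatids, 1 of WT round spermatids, 2 of Rnf8-KO pachytene spermatocytes and 2 of WT pachytene spermatocytes, all on the C57BL/6 background. Cells came from males pooled in groups of 3 to 4 and were separated by size in a gravity gradient to a stated purity above 95%. No label gives the animals' age, the nature of the Rnf8 allele, or whether the arrays of a group came from separate cell preparations, and any p-value below reflects the spread among these arrays alone, which may be technical. In such bulk fractions, fewer cells of a type and less RNA per cell cannot be told apart.

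Rnf8 is a RING-finger ligase that is drawn to phosphorylated chromatin, where it attaches ubiquitin to histone H2A, both at DNA breaks and on the X and Y chromosomes of meiotic cells. In pachytene spermatocytes, which are in meiotic prophase, the X and Y are condensed and silenced. In round spermatids, which are haploid, most X-linked genes stay at a low level while a subset becomes active.

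The targeted gene has 1 cluster on the array, which is shared with the readthrough gene Gm28043. This cluster had a log2 intensity of 7.50 on the KO and 7.78 on the WT round spermatid array. In pachytene spermatocytes it was 7.86 and 8.05 on the KO arrays, against 8.51 and 8.86 on the WT arrays. The KO arrays were lower in each cell type, but a signal remained, and which exons the cluster covers relative to the altered part of the gene is not known here. The means of the germ cell markers went with the labelled cells. The mean log2 intensity of 15 round spermatid markers was 12.21 and 12.27 on the KO and WT round spermatid arrays and between 11.02 and 11.46 on the pachytene arrays. The mean of 15 pachytene markers was 10.91 on the KO and 10.95 on the WT round spermatid array, and between 11.70 and 11.92 on the pachytene arrays. Of these, Pgk2 and Dmc1 were higher on the round spermatid arrays than on any pachytene array, and Ccna1 and Ldhc overlapped between the cell types. The mean of 6 Leydig cell markers was between 8.87 and 9.24 on the pachytene arrays, against 7.28 (KO) and 7.13 (WT) in round spermatids. The matrix gene Dcn was at 11.03 (KO) and 10.60 (WT) in round spermatids, and between 7.59 and 8.30 in pachytene spermatocytes. The share of other cells in each fraction was not measured. Median intensity per array lay between 197.3 and 217.7, and the lower quartile of all clusters lay between log2 6.15 and 6.28. The number of arrays limits the precision of every value below.

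All 9 genes have 1 cluster each and passed the filter of log2 6 or more on at least 1 array. The RefSeq annotation of GRCm38.p6 places all 9 on the X chromosome, which holds 3.48% of tested genes. It lists 6 as protein-coding (Fndc3c1, Pak3, Cenpi, Tceal1, 4930595M18Rik and 1700013H16Rik), 2 as transcribed pseudogenes (4933400A11Rik and 4921511C20Rik) and Ppp4r3c-ps as a pseudogene. In the order of the 624 tested X-linked genes they stand at positions 198 (1700013H16Rik), 316 (4930595M18Rik), 324 (Ppp4r3c-ps), 410 (Fndc3c1), 443 (4921511C20Rik), 457 (Cenpi), 483 (Tceal1), 527 (Pak3) and 623 (4933400A11Rik), so no 2 of them are neighbours. Probes of Ppp4r3c-ps, 1700013H16Rik and Fndc3c1 may also bind transcripts of related X-linked copies, which makes the source of their signal uncertain.

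Fndc3c1 encodes a protein with fibronectin type III domains, the repeats of many adhesion proteins. Its relative Fndc3a is needed in mice for the adhesion of spermatids to Sertoli cells. The log2 intensity of Fndc3c1 (cluster 10606333) was 6.37 on the KO and 9.46 on the WT round spermatid array. On the pachytene arrays it was 6.04 and 6.57 in KO, against 7.03 and 7.22 in WT. The WT round spermatid array stood far above the other 5 arrays, and the KO round spermatid value lay within the range of the KO pachytene values. Its difference of -3.09 between the round spermatid arrays was the lowest of all 17925 genes.

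The clone-named gene 4930595M18Rik (cluster 10605561) followed the same order. It was at log2 6.27 on the KO and 9.04 on the WT round spermatid array, a difference of -2.76, the next lowest of all tested genes. In pachytene spermatocytes it was at 5.80 and 5.98 in KO, against 6.92 and 6.88 in WT. The WT pair differed by 0.04 and the KO pair by 0.18, while the gap between the lowest WT and the highest KO value was 0.90. The KO round spermatid array read lower than both WT pachytene arrays.

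Tceal1 belongs to the family of transcription elongation factor A-like proteins. Its cluster (10601878) was at log2 6.09 on the KO and 7.76 on the WT round spermatid array, a difference of -1.67. The pachytene values were 6.00 and 6.05 in KO, against 6.41 and 7.10 in WT. All 3 KO arrays lay within 0.09 of each other and under the lowest WT array, while the WT pachytene arrays differed by 0.69. For Fndc3c1, 4930595M18Rik and Tceal1 the KO round spermatid value stood at the 27.8, 26.3 and 24.0 percentile of all clusters of that array. Background signal was not measured in the values used, which leaves the size of these 3 differences uncertain. The log2 differences given for them describe the recorded values and are no measure of the fold change in RNA.

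Pak3 encodes a p21-activated kinase, a serine/threonine kinase that acts downstream of the small GTPases Rac and Cdc42 and is best known in neurons. Its cluster (10602198) was at log2 8.45 on the KO and 10.16 on the WT round spermatid array, a difference of -1.71. Pachytene values were 7.49 and 7.88 in KO, against 8.31 and 8.40 in WT. These values lie well above the lower quartile on every array, and the pachytene arrays did not overlap between KO and WT.

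Cenpi encodes a protein of the inner kinetochore that helps to load the centromeric histone CENP-A. Its cluster (10601705) was at log2 7.35 on the KO and 8.91 on the WT round spermatid array, a difference of -1.56. Its pachytene signal was dim in both genotypes, at 6.19 and 5.97 in KO, against 6.53 and 6.46 in WT. The pachytene gap between the genotypes was 0.27, slightly more than the 0.22 between the KO replicates.

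Ppp4r3c-ps is related by name to the regulatory subunits of protein phosphatase 4. Its cluster (10600714) was at log2 7.72 on the KO and 10.03 on the WT round spermatid array, a difference of -2.31 and the fourth lowest of all tested genes. In pachytene spermatocytes it was at 6.23 and 5.66 in KO, against 7.49 and 7.87 in WT. Here the genotypes were 1.26 apart at their nearest values, the widest pachytene gap among the 9 genes. The KO round spermatid array reached the level of the WT pachytene arrays.

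The transcribed pseudogenes differed from the other genes in the spread of their KO pachytene arrays. On the KO and WT round spermatid arrays, 4933400A11Rik (cluster 10607945) was at log2 9.94 and 11.13, and in pachytene spermatocytes at 9.03 and 7.03 in KO, against 9.13 and 9.87 in WT. 4921511C20Rik (cluster 10601607) was at 10.24 on the KO and 11.08 on the WT round spermatid array, and in pachytene spermatocytes at 8.59 and 7.34 in KO, against 9.34 and 9.08 in WT. In both genes the KO pachytene arrays disagreed strongly, array 1 reading 2.00 and 1.25 above array 2. KO array 1 lay only 0.10 under the lower WT array for 4933400A11Rik and 0.49 under it for 4921511C20Rik.

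1700013H16Rik, which RefSeq also lists as Slx2 and Xlr6, carries names of the X-linked Slx and Xlr families. Its cluster (10604643) was at log2 7.62 on the KO and 8.99 on the WT round spermatid array, a difference of -1.37. In pachytene spermatocytes it was at 6.67 and 5.92 in KO, against 6.74 and 6.82 in WT. KO array 1 was only 0.08 under the lower WT array, which is less than the 0.75 between the KO replicates.

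**Figure D1:**
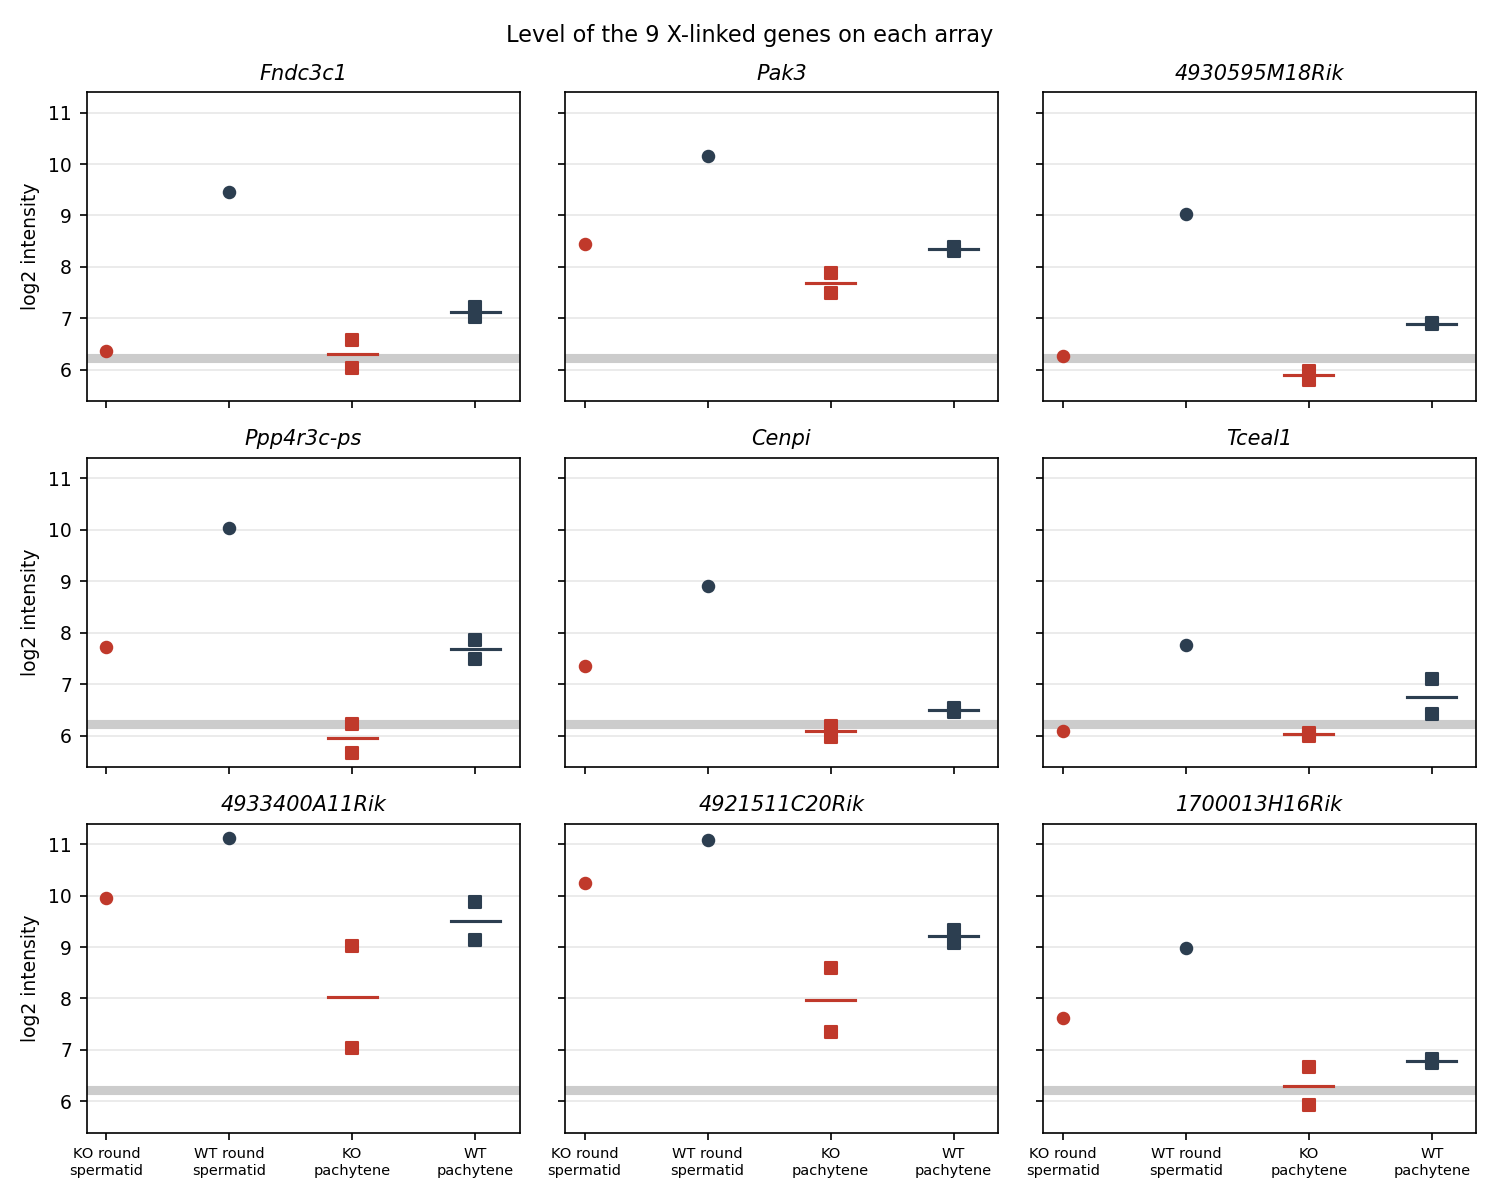
Log2 intensity (vertical axis) of each gene on the KO round spermatid, WT round spermatid, KO pachytene and WT pachytene arrays. Each point is 1 array, short lines are means of 2 arrays, and the grey band spans the lower quartiles of the 6 arrays (log2 6.15 to 6.28). The WT round spermatid array is the highest in all 9 panels, and the KO pachytene arrays lie under the WT pachytene arrays in each.

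Across the round spermatid arrays the KO minus WT differences of the 9 genes ran from -3.09 (Fndc3c1) to -0.84 (4921511C20Rik), with a median of -1.67, against a median of 0.05 over all tested genes and 0.03 over tested X-linked genes. Of the 9, 8 were at least 2-fold lower in KO, all but 4921511C20Rik. So were 0.351% of all tested genes and 5.61% of X-linked genes. The 8 include Fndc3c1, 4930595M18Rik and Tceal1, whose dim KO values leave their fold uncertain. Since these arrays chose the genes, nothing is read from this count. The list is also no complete set. At or below the difference of 4921511C20Rik lay 99 of all tested genes, the 9 included. Among these were 35 other tested X-linked genes, 27 of them at least 2-fold lower. Of the 63 tested genes at least 2-fold lower in KO, 35 were X-linked, so such low values were not confined to the X.

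The rule of choice did not use the pachytene arrays, but their earlier results were known, so the values below are no independent check. From the lowest difference of all tested genes, 4921511C20Rik stood at rank 99 in round spermatids and at rank 8 in pachytene spermatocytes. All 9 genes had both KO arrays below both WT arrays, a pattern that 10.2% of all tested genes and 9.13% of X-linked genes showed. Differences between KO and WT means ran from -1.73 (Ppp4r3c-ps) to -0.41 (Cenpi). Their median was -0.82, against 0.03 over all tested genes and 0.06 over X-linked genes. In the limma fit across all genes no gene passed an adjusted p of 0.05, so 0 of the 9 and 0% of the 17925 were called. At an unadjusted p under 0.05, 8 of the 9 lay lower in KO, 1700013H16Rik being the exception, as did 1.39% of all tested genes and 4.49% of X-linked genes.

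The smallest adjusted p of the limma fit was 0.414, a value that the Benjamini-Hochberg adjustment can give to several genes, others than the 9 included. Among the 9 it was that of Ppp4r3c-ps (-1.73, SE 0.23, n = 2 per genotype) and 4930595M18Rik (-1.01, SE 0.15), and the other 7 genes had an adjusted p of 1. Their differences were -1.47 for 4933400A11Rik (SE 0.58), -1.24 for 4921511C20Rik (SE 0.36), -0.82 for Fndc3c1 (SE 0.21), -0.73 for Tceal1 (SE 0.23), -0.67 for Pak3 (SE 0.18), -0.49 for 1700013H16Rik (SE 0.24) and -0.41 for Cenpi (SE 0.16). In the order of all pachytene differences Ppp4r3c-ps was the third lowest, 4933400A11Rik the sixth and 4921511C20Rik the eighth of 17925 genes. The last pair depend on KO pachytene array 2, without which their differences were -0.47 and -0.62. With the replicate number as a block, 4 of the 9 passed (Ppp4r3c-ps, 4933400A11Rik, 4921511C20Rik and 4930595M18Rik), among 43 genes in all, but same-numbered arrays did not deviate together (correlation of -0.227 across genes). The pachytene values rest partly on dim values, since 6 of the 9 genes had a KO array below log2 6.28, the highest lower quartile of the 6 arrays. After a second quantile normalization KO and WT did not overlap for 8 of the 9 genes, and did for 1700013H16Rik. The share of all tested genes after that step is not given here, so this count is a description.

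The KO pachytene arrays differed from each other in germ cell markers. All 15 round spermatid markers were lower on KO array 2 than on array 1. Their mean log2 intensity was 11.46 and 11.02 on the KO pachytene arrays, against 11.19 and 11.05 on the WT pachytene arrays. By this mean array 1 lay above both WT arrays and array 2 close to the lower one. Of 15 pachytene markers, 13 were also lower on KO array 2, with means of 11.92 and 11.70 in KO, against 11.79 and 11.82 in WT. Spermatid markers had a median KO minus WT difference of 0.11 in pachytene spermatocytes, with 3 of 15 below WT. Of the 9 genes, 5 were lower on KO array 2 than on array 1 (Ppp4r3c-ps, Cenpi, 4933400A11Rik, 4921511C20Rik and 1700013H16Rik), while Fndc3c1, Pak3, 4930595M18Rik and Tceal1 were lower on array 1. Among markers of other testis cells, the pachytene median difference was 0.15 for 12 spermatogonial, 0.12 for 14 Sertoli, 0.08 for 10 peritubular and vessel, 0.00 for 6 macrophage and blood and -0.12 for 6 Leydig markers, and 0 of these passed. On the round spermatid arrays that chose the genes, the same lists had a median KO minus WT difference of 0.28 for the spermatogonial, 0.24 for the Sertoli (range 0.01 to 0.60), 0.30 for the peritubular and vessel, 0.00 for the macrophage and blood and 0.11 for the Leydig markers, and -0.03 for the 15 round spermatid markers. The share of other cells in the differences of the 9 genes was not tested.

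**Figure D2:**
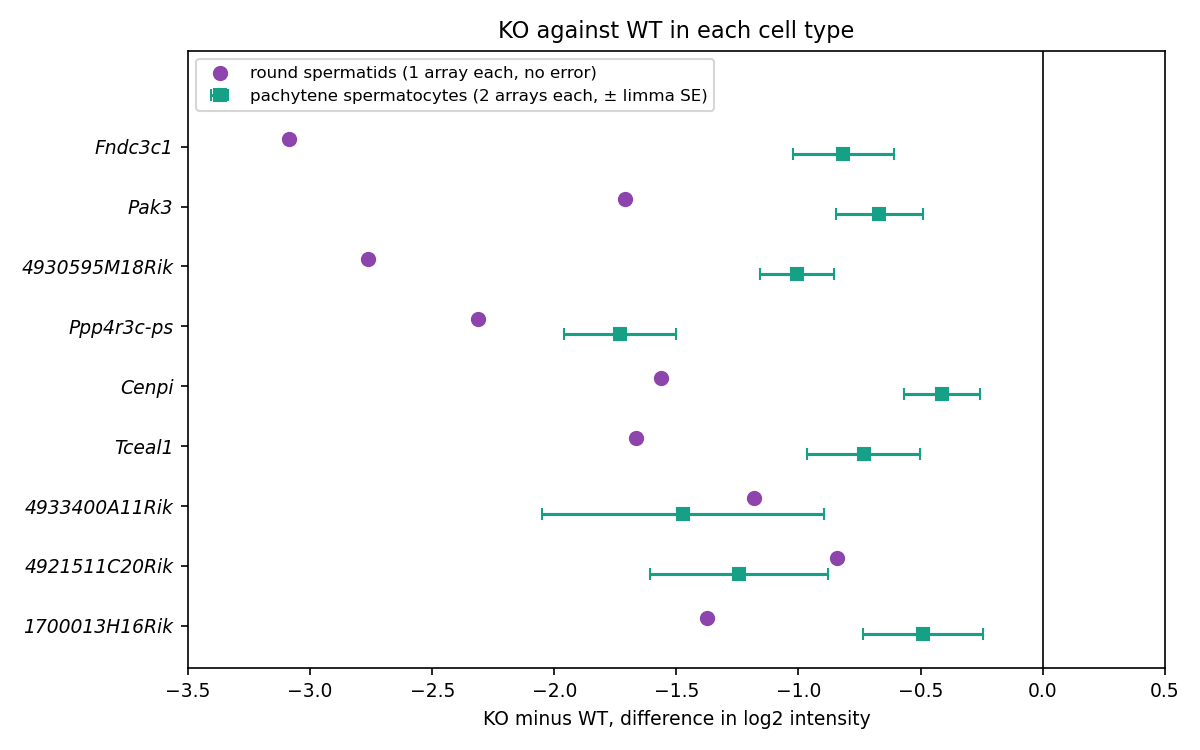
KO minus WT difference in log2 intensity (horizontal axis) for each gene, in round spermatids (circles, 1 array per genotype, no error) and pachytene spermatocytes (squares, 2 arrays per genotype, bars are ± the limma SE). All values lie left of 0, and only 4933400A11Rik and 4921511C20Rik have a pachytene value left of the round spermatid value, which for both rests on KO pachytene array 2.

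Side by side, 7 of the 9 genes had a lower KO minus WT difference in round spermatids than in pachytene spermatocytes. The values were -3.09 and -0.82 for Fndc3c1, -2.76 and -1.01 for 4930595M18Rik, and -1.56 and -0.41 for Cenpi. For 4933400A11Rik they were -1.18 and -1.47, and for 4921511C20Rik -0.84 and -1.24. Since the round spermatid arrays chose the genes, whether the 2 cell types differ was not tested.

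**Figure D3:**
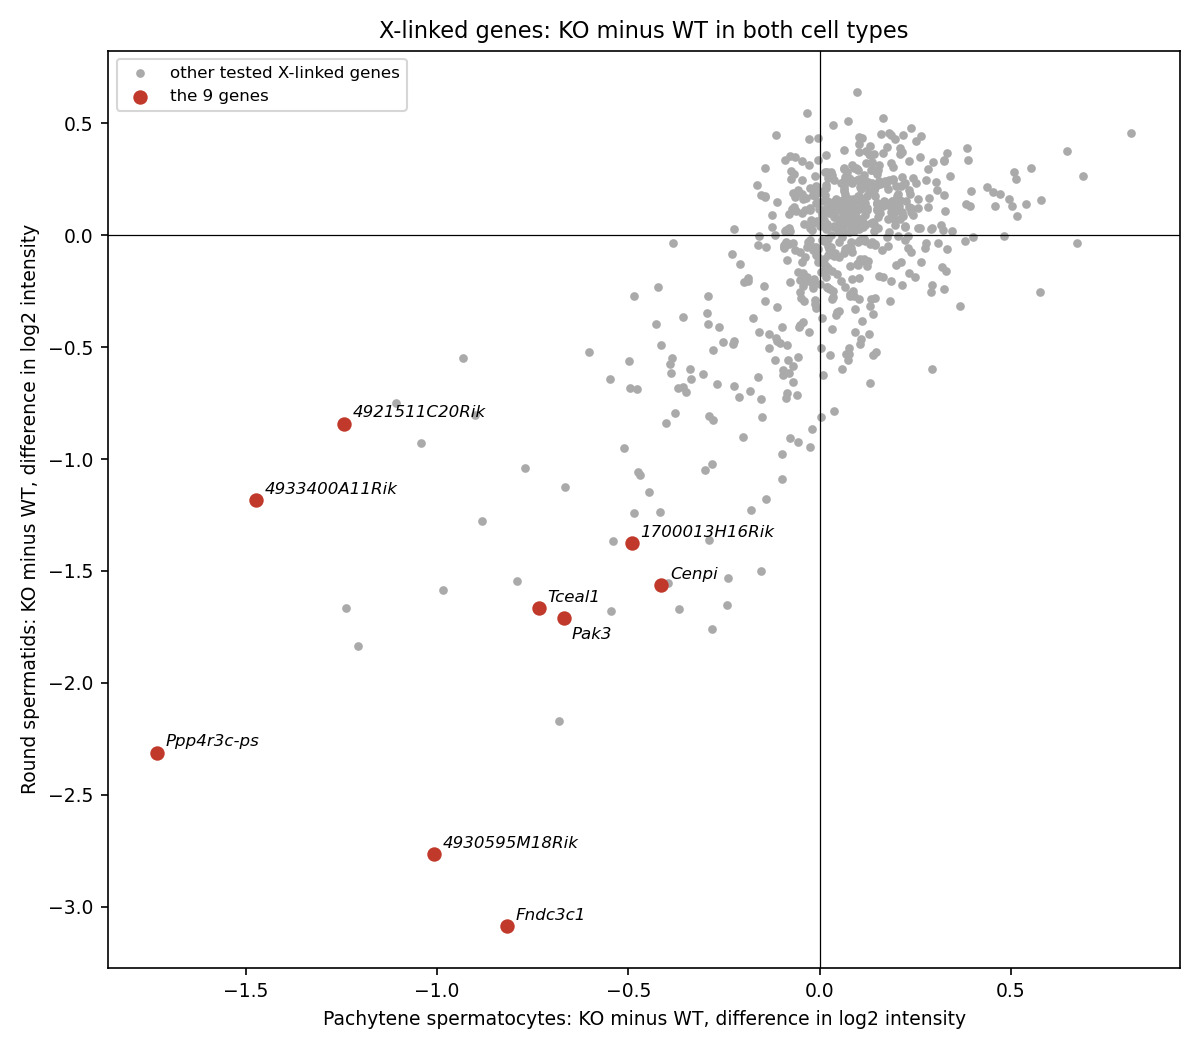
KO minus WT difference in log2 intensity in pachytene spermatocytes (horizontal axis) and round spermatids (vertical axis) for the 624 tested X-linked genes, with the 9 genes in red. The 9 genes lie in the lower left with a number of other X-linked genes, while most X-linked genes lie near 0 on both axes.

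The pattern in pachytene spermatocytes was not particular to the 9 genes. Of the 35 other X-linked genes at or below the round spermatid difference of 4921511C20Rik, 21 (60.0%) also had both KO pachytene arrays below both WT arrays, as did 48 of all 615 other X-linked genes.

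In WT males the round spermatid value of all 9 genes was 2-fold or more above the pachytene mean, as it was for 8.39% of all tested genes. In KO males this held for 5 of the 9 and for 6.21% of all tested genes. The round spermatid values entered the choice of the genes, which favours a low KO and a high WT value, so these counts are descriptions. The smallest KO round spermatid minus pachytene differences were those of Fndc3c1 (0.06 in KO, 2.33 in WT), Tceal1 (0.07 in KO, 1.00 in WT) and 4930595M18Rik (0.38 in KO, 2.14 in WT). Their values were dim on every KO array, between the 20.2 and 28.9 percentile of all clusters. Background signal was not measured, so whether these small KO differences reflect the RNA level was not tested. In these 3 genes the KO round spermatid value lay under both WT pachytene values.

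A second set was higher in round spermatids in both genotypes, with a smaller difference in KO. It held Pak3 (0.77 in KO, 1.81 in WT), Cenpi (1.26 in KO, 2.41 in WT), 1700013H16Rik (1.32 in KO, 2.21 in WT) and Ppp4r3c-ps (1.77 in KO, 2.36 in WT). For the pseudogenes 4933400A11Rik (1.92 in KO, 1.63 in WT) and 4921511C20Rik (2.27 in KO, 1.87 in WT) the KO difference was the larger. By arithmetic this is the same statement as their KO minus WT difference being lower in pachytene spermatocytes than in round spermatids. The same holds, the other way round, for the other genes, so the 2 comparisons are no separate observations. The order of these pseudogene values rests on KO pachytene array 2. Without that array the round spermatid minus pachytene difference of 4933400A11Rik was 0.92 in KO, beside 1.63 in WT, and that of 4921511C20Rik was 1.64 in KO, beside 1.87 in WT, as in the second set. Their pachytene KO minus WT differences were then -0.47 and -0.62, closer to 0 than the round spermatid differences of -1.18 and -0.84. The KO count moved as well: without array 2, 3 rather than 5 genes were at least 2-fold higher, 4933400A11Rik and 1700013H16Rik falling short. Without KO pachytene array 1 the KO difference of Fndc3c1 was -0.20.

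**Figure D4:**
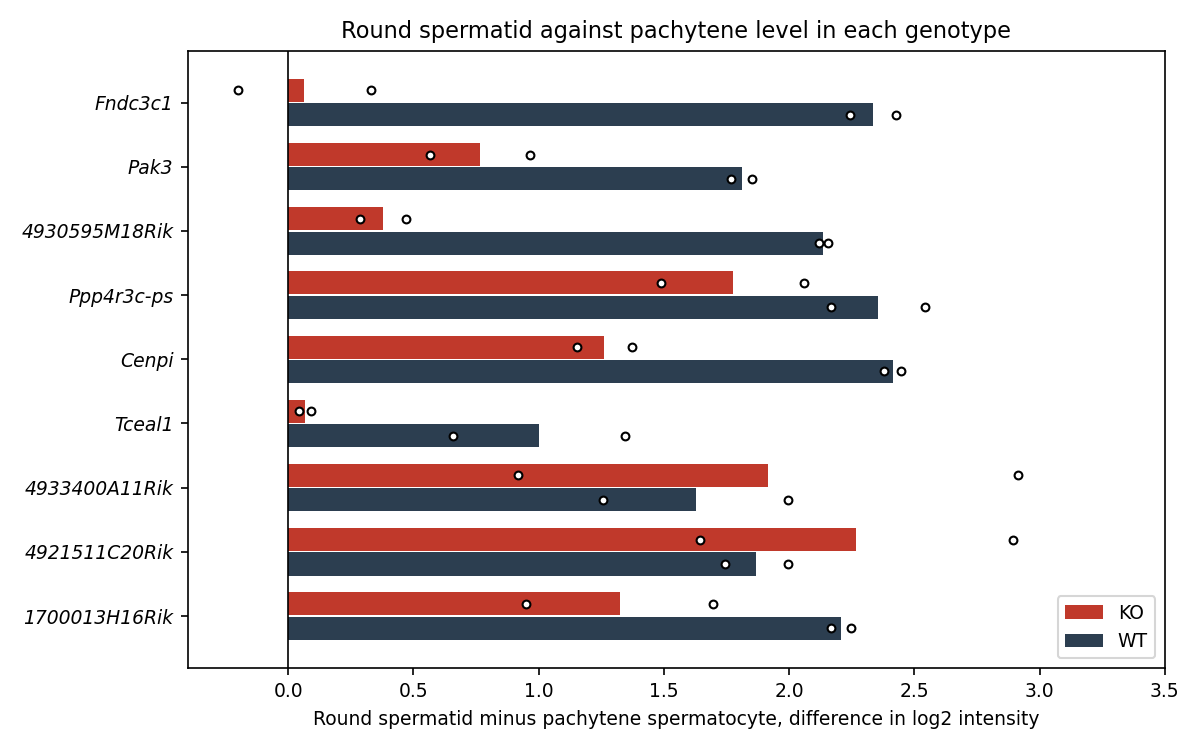
Round spermatid minus mean pachytene spermatocyte difference in log2 intensity (horizontal axis) for each gene, in KO (red) and WT (dark blue). Open circles give the difference to each of the 2 pachytene arrays. The KO bar is shorter than the WT bar in all genes but 4933400A11Rik and 4921511C20Rik.

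Relatives of the 9 genes were also measured. As for all 17925 genes, 0 of them were called in pachytene spermatocytes (limma, adjusted p of 0.05), and 0 were at least 2-fold lower in KO round spermatids, beside 0.351% of all tested genes, so these counts do not set them apart. Of the other p21-activated kinases, Pak2 was at log2 10.32 on the KO and 10.30 on the WT round spermatid array, Pak4 at 9.18 and 9.13, and Pak6 at 8.44 and 8.17. In pachytene spermatocytes Pak2 was at 10.64 and 10.53 in KO, against 10.74 and 10.69 in WT, so that its genotypes did not overlap either. Fndc3a was at 11.82 on the KO and 11.80 on the WT round spermatid array, and Fndc3b at 7.98 and 7.92.

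Among 20 other genes of the centromere and kinetochore list, KO minus WT differences in round spermatids ran from -0.47 (Cenpw) to 0.35 (Cenpa), with a median of -0.02. In pachytene spermatocytes their median was -0.15, with 17 of 20 below WT and 6 with both KO arrays below both WT arrays, beside 10.2% of all tested genes. Cenpw (-0.50), Cenph (-0.37), Cenpk (-0.37) and Cenpa (0.31) had the largest pachytene differences. Cenph was at 8.56 and 7.41 in KO, against 7.90 and 8.81 in WT, so that the genotypes overlapped. For 7 other genes of the Tceal and Bex family, the differences in round spermatids ran from -0.11 to 0.16. For 7 other genes of the protein phosphatase 4 complex they ran from -0.30 to 0.06, and the subunit genes Ppp4c and Ppp4r1 were at 0.06 and 0.05.

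The nearest tested gene on each side of each member gave 18 neighbours, whose KO minus WT difference in round spermatids ran from -0.95 to 0.52 with a median of -0.13. Of the 18, 0 were at least 2-fold lower, beside 5.61% of X-linked genes, and 4 had both KO pachytene arrays below both WT arrays, beside 9.13% of X-linked genes. Cenpi lay between Tmem35a (7.05 on the KO and 6.82 on the WT round spermatid array) and Drp2 (7.26 and 7.04). Pak3 lay between Chrdl1 (6.95 on the KO and 6.77 on the WT round spermatid array) and Capn6 (6.86 and 6.68). Beside 4921511C20Rik (-0.84), the neighbour Gm382 had a difference of -0.95 and was at 9.18 on the KO and 10.13 on the WT round spermatid array, and Cldn34c4 at 10.41 and 10.97. Next to Fndc3c1, the transcription factor subunit gene Taf9b was at 11.85 on the KO and 12.40 on the WT round spermatid array. In pachytene spermatocytes Taf9b was at 10.79 and 10.18 in KO, against 11.36 and 11.48 in WT, a difference of -0.93 beside -0.82 for Fndc3c1.

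The genes most like the mean profile of the 9 over the 6 arrays were also X-linked. This profile includes the round spermatid arrays that chose the 9, so the likeness is a description. By root mean square difference of mean-centred log2 values, they were Ube2dnl1 (0.14), Gm614 (0.15), Samt3 (0.17), 4930480E11Rik (0.20) and Samt4 (0.21). Ube2dnl1 was at log2 8.91 on the KO and 10.45 on the WT round spermatid array, and in pachytene spermatocytes at 7.81 and 7.60 in KO, against 8.52 and 8.47 in WT. The 9 genes themselves lay between 0.28 (1700013H16Rik) and 0.57 (4933400A11Rik) from their mean profile. The 5 genes were picked for the smallest distances among all other tested genes, so nothing is read from their lying closer.

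The RefSeq table of GRCm38.p6 gave promoter windows, from 250 bases before to 50 bases after a start site, for the 6 protein-coding genes, 8 windows in all because the table gives Pak3 3 start sites. The windows of the 2 genes with the lowest round spermatid differences, and of Cenpi and Tceal1, which hold the core of a cyclic AMP response element, are shown so that their sequence can be set beside the levels. Capitals mark the motifs searched on both strands: TGACGTCA (the full cyclic AMP response element, bound in spermatids by CREM), its core TGACG, the TATA box TATAAA, the CAAT box CCAAT, the GC box GGGCGG and the E-box CACGTG. The core lies within the full element, and neighbouring GC boxes can run together. Fndc3c1 is at chrX:106485180-106485479 on the minus strand, 4930595M18Rik at chrX:81458073-81458372 on the minus strand, Cenpi at chrX:134307834-134308133 on the plus strand and Tceal1 at chrX:136707732-136708031 on the plus strand.
Fndc3c1: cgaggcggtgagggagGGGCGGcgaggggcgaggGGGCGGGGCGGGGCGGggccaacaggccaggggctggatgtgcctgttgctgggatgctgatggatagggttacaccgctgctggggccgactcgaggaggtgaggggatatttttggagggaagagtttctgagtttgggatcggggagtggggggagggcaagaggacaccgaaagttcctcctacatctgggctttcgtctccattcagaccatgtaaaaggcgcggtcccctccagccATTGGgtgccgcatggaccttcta
4930595M18Rik: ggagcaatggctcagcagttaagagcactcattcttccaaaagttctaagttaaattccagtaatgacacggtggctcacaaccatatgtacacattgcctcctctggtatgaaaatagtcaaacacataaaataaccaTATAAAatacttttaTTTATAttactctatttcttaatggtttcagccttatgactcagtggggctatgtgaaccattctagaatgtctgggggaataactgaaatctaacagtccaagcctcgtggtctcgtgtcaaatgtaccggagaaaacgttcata
Cenpi: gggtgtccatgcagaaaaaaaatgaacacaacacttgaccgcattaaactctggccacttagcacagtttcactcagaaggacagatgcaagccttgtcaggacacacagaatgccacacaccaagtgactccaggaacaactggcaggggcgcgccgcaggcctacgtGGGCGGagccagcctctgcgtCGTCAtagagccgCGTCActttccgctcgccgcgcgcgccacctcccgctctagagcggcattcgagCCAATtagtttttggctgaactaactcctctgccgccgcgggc
Tceal1: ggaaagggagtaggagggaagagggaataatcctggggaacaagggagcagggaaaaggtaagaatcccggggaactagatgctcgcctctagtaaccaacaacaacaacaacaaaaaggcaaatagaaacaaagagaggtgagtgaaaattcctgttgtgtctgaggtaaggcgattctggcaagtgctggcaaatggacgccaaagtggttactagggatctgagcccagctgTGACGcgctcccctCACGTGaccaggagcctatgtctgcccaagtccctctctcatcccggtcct

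The windows had little in common. GC content was 63.3% for Fndc3c1, which holds 4 matches to GGGCGG, against 38.3% for 4930595M18Rik, which holds TATAAA on both strands, at -111 and -96 from the start site, and no GGGCGG. The medians were 52.7% over all 32851 windows of the table and 51.0% over the X-linked windows. TGACG was found in Cenpi at -60 and -47, on the minus strand, and in Tceal1 at -15, on the plus strand. It is held by 20.8% of all and 19.1% of X-linked windows. TGACGTCA was in none of the 8 windows, beside 1.79% of all and 1.14% of X-linked windows. CACGTG was in 2 of the 8, that of Tceal1 and 1 of Pak3, beside 7.15% of all and 8.59% of X-linked windows. CCAAT was in 5 of the 8, beside 37.4% of all and 45% of X-linked windows. GGGCGG was in 3 of the 8, beside 35.7% of all and 33.9% of X-linked windows. TATAAA was in 1 of the 8, beside 13.6% of all and 14.6% of X-linked windows. These matches describe the letters of the windows and show no binding.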

How the data were processed

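The authors deposited 1 intensity on a linear scale per transcript cluster and array, and the submitters' processing notes name RMA and Affymetrix Expression Console 1.1. No source used here gives further options or the genome build. RMA brings arrays to a common distribution, so a change in total RNA per cell cannot be seen. Groups were taken from the sample titles. The design had assumed log2 values, so log2 was taken of the deposited intensity.

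Of 35556 clusters, 21789 had 1 gene symbol in the platform annotation, 1621 several and 12146 were not listed. For each gene the cluster of highest mean was used, and 17925 of 19938 genes reached log2 6 on 1 array or more. KO against WT in pachytene spermatocytes was tested with limma 3.58.1 in R 4.3.3 (lmFit and eBayes, 4 groups over 6 arrays, Benjamini-Hochberg over all genes, threshold 0.05). The fit has 2 residual degrees of freedom, all from pachytene arrays. It was tested on simulated data. Deviations of same-numbered pachytene arrays correlated at -0.227 across genes, so the numbers were not taken to pair them.

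The 9 genes and all lists were chosen with earlier results of these data known. Named were the 9 genes, Rnf8, the 5 genes of nearest profile, neighbours on X and up to 4 relatives per family. Round spermatid arrays numbered 1 were not analysed here.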

Additional observations from a re-analysis of the deposited data

How the results depend on the processing

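Over 12 alternatives all 108 recomputed pachytene differences of the 9 genes stayed below 0, but most of these signs were fixed in advance. Filters and blocks leave the differences unchanged. Since both KO arrays lay below both WT arrays in each gene, only the second quantile normalization could have changed a sign. Without KO pachytene array 2 the differences were -0.47 for 4933400A11Rik and -0.62 for 4921511C20Rik, against -1.47 and -1.24 with both arrays. The median of -0.82 ran from -0.99 to -0.72 when 1 pachytene array was left out. The count of genes with both KO arrays below both WT arrays was 8 after a second quantile normalization, with no share of all tested genes given beside it. Leaving out 1 pachytene array cannot lower this count, so the 9 found then shows no stability. The count past an adjusted p of 0.05 was 0 under every alternative but those with a block, leaving out 1 array included, where 0 to 2 of all genes passed. With the replicate block it was 4 of the 9, and with crossed numbers, a pairing chosen after seeing the data, 6 of the 9 and 88 of all genes passed. The round spermatid median was -1.67, and -1.48 on the log2 scale with 16 added to each intensity. The count at least 2-fold higher in KO round spermatids than in KO pachytene spermatocytes, 5, ran from 3 to 5 without 1 KO array, and that in WT from 8 to 9 without 1 WT array. The KO difference of Fndc3c1 was -0.20 without KO pachytene array 1 and 0.33 without array 2, against 0.06 with both arrays. Each gene has 1 cluster, so averaging clusters changed no value. The cause of these shifts was not tested. The round spermatid values have no replicate, and low intensities limit the sizes given.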
